A study of Mus musculus with 6 samples.

Results

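Neutrophils find infected or damaged tissue through surface receptors for formyl peptides, complement fragments and lipid mediators, and 8 genes of this kind were measured here. The genes were taken by symbol: the formyl peptide receptor genes Fpr1, Fpr2 and Fpr3, the complement receptor genes C5ar1, C5ar2 and C3ar1, and the lipid receptor genes Ltb4r1 and Ptafr. All 8 matched an Ensembl ID in the count tables, which list 43432 genes, and 7 of the 8 had enough counts to be tested among 12908 genes. Fpr3 did not, with at most 2 counts in a library.

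Hyperoxia mice were kept in a chamber at 60% oxygen between postnatal days 18 and 28, a span of 10 days, and normoxia mice in ambient air. Every mouse was of strain C57BL/6, 4 weeks old, and carried Pgrcre/+, which expresses the cre recombinase from the progesterone receptor locus, together with a conditional allele. Both groups carry this cre-driven deletion, which is directed at progesterone receptor-expressing cells and not at neutrophils, and no mice without it were compared. Neutrophils, gated as CD45+ CD11b+ cells with high Ly6G, were sorted from whole digested uteri, and each of the 2 groups gave 3 RNA-seq libraries.

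Libraries held 44152840 to 61715617 counts in hyperoxia and 38683293 to 44870447 in normoxia. Defining neutrophil markers were abundant: the 12 listed genes summed to 43170 to 111000 CPM in hyperoxia libraries and 43340 to 62560 CPM in normoxia libraries, where CPM is the usual depth-scaled count unit, here after TMM scaling, edgeR's trimmed mean method. Hyperoxia replicate 2 stood apart from the other 5 libraries, with the highest sum of these markers and 8774 CPM of the neutrophil gene Retnlg, against 531 to 2260 CPM in the other hyperoxia libraries and 610 to 1710 CPM in normoxia. That sum was mostly S100a8 and S100a9, at 44970 and 38860 CPM in this library. Its markers did not all go the same way: Csf3r, Il1r2 and Clec4d were lowest in this library, at 1317, 4823 and 731 CPM. Transcripts listed as markers of other cells were present in both groups, and which cells they came from was not tested. The 14 monocyte and macrophage markers summed to 2269 to 3485 CPM in hyperoxia and 1545 to 1742 CPM in normoxia. Of this sum, Apoe gave 834 to 1655 CPM in hyperoxia and 521 to 587 CPM in normoxia. Cd68 gave 567 to 586.5 CPM in hyperoxia and 509 to 583 CPM in normoxia. The 9 endothelial markers summed to 28.2 to 64.7 CPM in hyperoxia and 10.6 to 15.3 CPM in normoxia. Sums were 698 to 2093 against 473.5 to 513 CPM for MHC class II and dendritic cell genes, 163 to 357 against 68.4 to 153 CPM for stromal and epithelial genes, 7.11 to 32.3 against 5.99 to 14.3 CPM for T and NK cell genes, and 29.3 to 53.8 against 30.5 to 31.6 CPM for B cell genes, each for hyperoxia against normoxia. The epithelial genes Epcam, Krt8, Krt18 and Cdh1 overlapped between groups. Epcam had 29.25, 1.49 and 20.1 CPM in hyperoxia and 8.80, 12.3 and 22.5 CPM in normoxia. Most of the B cell sum was Ighm, at 27.4 to 47.6 CPM in hyperoxia and 28.7 to 29.7 CPM in normoxia. The median log2 difference of the 5 tested B cell genes was 1.39, against 0.04 over all tested genes. Mast cell and basophil genes summed to 3925 to 6246 CPM in hyperoxia and 3995 to 5092 CPM in normoxia, but nearly all of this was Hdc, which neutrophils also express, at 3917 to 6245 CPM in hyperoxia and 3993 to 5090 CPM in normoxia. Of the other 7, Kit reached 6.94 CPM in hyperoxia and 1.85 CPM in normoxia, the rest stayed under 1 CPM, and Ms4a2 was at 0. Of the eosinophil markers, Epx and Ear1 were at 0 in all 6 libraries, whereas Siglecf had 38.9 to 94.97 CPM in hyperoxia and 103 to 178 CPM in normoxia. Ccr3 of that list had 1.39, 2.54 and 4.57 CPM in hyperoxia and 4.12, 5.52 and 6.30 CPM in normoxia, with overlapping groups. Ear2 and Prg2 were higher in hyperoxia: Ear2 had 0.936, 4.03 and 1.39 CPM in hyperoxia and 0.632, 0.421 and 0.617 CPM in normoxia (adjusted p of 0.239 by edgeR and 0.0351 by DESeq2), and Prg2 had 1, 21 and 2 counts in hyperoxia and 0 counts in each normoxia library. Of the 4 tested eosinophil markers, 2 had a log2 difference above 0 and 2 below. The eosinophil markers summed to 41.7 to 101 CPM in hyperoxia and 108 to 184 CPM in normoxia. Most of this sum was Siglecf in every library, so it follows 1 gene and does not measure eosinophil content.

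The 8 genes encode receptors with a membrane-spanning bundle of helices that act mainly through inhibitory G proteins, and their engagement directs crawling, granule release and the oxidative burst. Formyl peptides come from bacteria and from mitochondria of broken cells. C5a and C3a are cut from complement proteins C5 and C3, leukotriene B4 is made from arachidonic acid by leukocytes, and platelet-activating factor is a phospholipid signal of leukocytes and endothelium. C5AR2 differs from its neighbours in coupling poorly to G proteins.

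**Figure D1:**
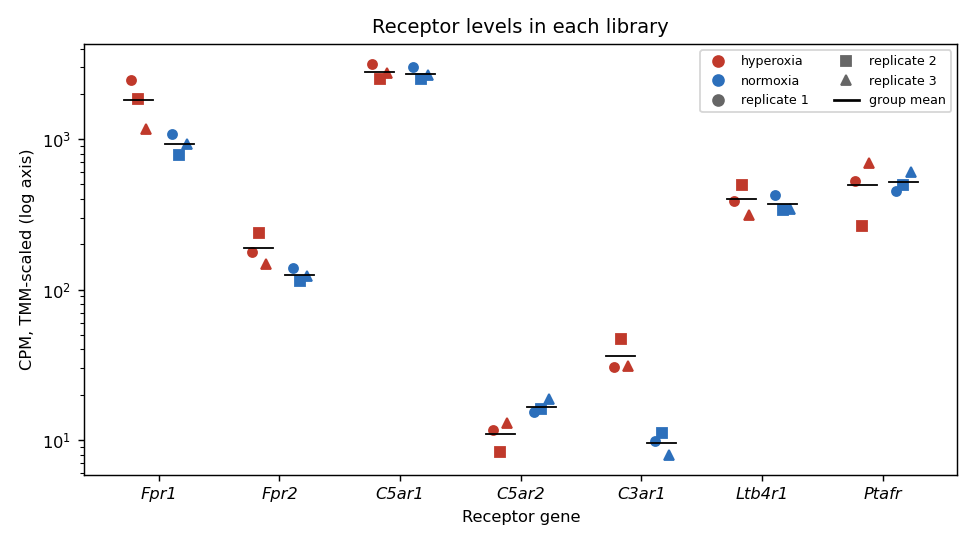
Level of each tested receptor gene in CPM (log axis) by gene, with hyperoxia in red at the left of each pair and normoxia in blue, markers for the 3 replicates and black lines for group means. C3ar1 lies at 30.4 to 46.6 CPM in hyperoxia and at 7.92 to 11.1 CPM in normoxia, Fpr1 and Fpr2 are above normoxia in each hyperoxia library, and C5ar2 is below.

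C5a and formyl peptide receptor transcripts dominated the set. Per kilobase of exon, the scale on which different genes can be compared, Fpr1 averaged 1383 ± 493 CPM per kb in hyperoxia and 704 ± 113.5 CPM per kb in normoxia (SD, n = 3 each). C5ar1, the main receptor for C5a, averaged 1094 ± 132 CPM per kb in hyperoxia and 1062 ± 106 CPM per kb in normoxia (SD, n = 3 each), and it ranked between 55 and 63 in hyperoxia libraries and between 57 and 61 in normoxia libraries among the 12908 tested genes, counted from the most abundant. Ltb4r1, the high-affinity receptor for leukotriene B4, averaged 287 ± 66.9 CPM per kb in hyperoxia and 265 ± 36.0 CPM per kb in normoxia. Ptafr, the receptor for platelet-activating factor, averaged 136 ± 59.2 CPM per kb in hyperoxia and 142 ± 21.85 CPM per kb in normoxia, close to Fpr2, whose product binds annexin and serum amyloid ligands as well as formyl peptides, at 145 ± 35.7 CPM per kb in hyperoxia and 96.85 ± 10.1 CPM per kb in normoxia.

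C3ar1, the receptor for C3a, and C5ar2 were the low members, and their order was not the same in the 2 groups. C3ar1 averaged 8.38 ± 2.12 CPM per kb in hyperoxia and 2.23 ± 0.374 CPM per kb in normoxia, and C5ar2 3.08 ± 0.677 CPM per kb in hyperoxia and 4.67 ± 0.498 CPM per kb in normoxia (SD, n = 3 each). C3ar1 was above C5ar2 in all 3 hyperoxia libraries and below it in all 3 normoxia libraries. From high to low the hyperoxia order was Fpr1, C5ar1, Ltb4r1, Fpr2, Ptafr, C3ar1 and C5ar2. Neighbours whose libraries overlapped there were Fpr1 with C5ar1 and Fpr2 with Ptafr. The normoxia order was C5ar1, Fpr1, Ltb4r1, Ptafr, Fpr2, C5ar2 and C3ar1, with no overlap between neighbours as counted. The place of Fpr2 beside Ptafr is uncertain in both groups, because much of the Fpr2 sequence also occurs in other genes.

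**Figure D2:**
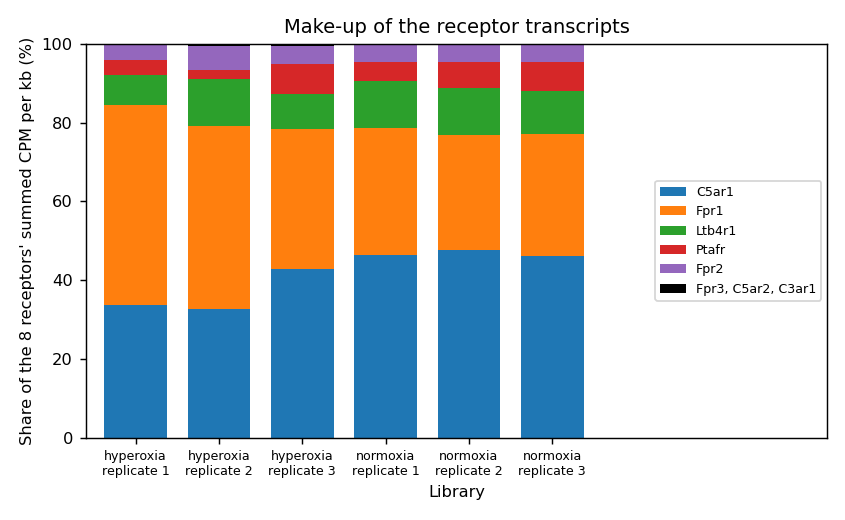
Share of each receptor gene in the summed CPM per kb of the 8 genes (%), one stacked bar per library, hyperoxia at the left. Fpr1 makes up 35.6% to 50.8% of the sum in hyperoxia and 29.1% to 32.3% in normoxia.

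As a share of the summed CPM per kb of the 8 genes, Fpr1 took 50.8%, 46.4% and 35.6% in hyperoxia replicates 1 to 3, against 32.3%, 29.1% and 31.0% in normoxia replicates 1 to 3. C5ar1 took 33.6%, 32.7% and 42.8% of the sum in hyperoxia, against 46.3%, 47.6% and 46.2% in normoxia. Hyperoxia replicate 3 lay nearest to the normoxia libraries for both genes. The sum itself was 3682, 2995 and 2491 CPM per kb in hyperoxia and 2544, 2039 and 2247 CPM per kb in normoxia. Its groups overlapped, since hyperoxia replicate 3 was below normoxia replicate 1.

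Promoter sequences are shown for C3ar1 and Fpr1, which were above normoxia in every hyperoxia library, and for C5ar2, which was below normoxia in every one. Each runs 5′ to 3′ on the gene's strand from 250 bases before to 50 after the RefSeq start site in build GRCm38.p6, with capitals on letters that match the motifs listed after them.
C3ar1: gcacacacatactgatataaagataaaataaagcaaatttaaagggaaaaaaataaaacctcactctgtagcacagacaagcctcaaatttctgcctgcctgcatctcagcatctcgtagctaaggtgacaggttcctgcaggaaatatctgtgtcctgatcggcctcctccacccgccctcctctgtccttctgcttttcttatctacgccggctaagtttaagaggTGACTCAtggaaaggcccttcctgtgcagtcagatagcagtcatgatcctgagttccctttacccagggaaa
Fpr1: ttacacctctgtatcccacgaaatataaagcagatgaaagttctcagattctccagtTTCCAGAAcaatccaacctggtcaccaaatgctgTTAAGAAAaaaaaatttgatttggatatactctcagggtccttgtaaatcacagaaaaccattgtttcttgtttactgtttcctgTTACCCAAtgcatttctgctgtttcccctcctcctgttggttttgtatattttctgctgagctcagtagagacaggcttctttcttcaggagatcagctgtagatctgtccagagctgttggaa
C5ar2: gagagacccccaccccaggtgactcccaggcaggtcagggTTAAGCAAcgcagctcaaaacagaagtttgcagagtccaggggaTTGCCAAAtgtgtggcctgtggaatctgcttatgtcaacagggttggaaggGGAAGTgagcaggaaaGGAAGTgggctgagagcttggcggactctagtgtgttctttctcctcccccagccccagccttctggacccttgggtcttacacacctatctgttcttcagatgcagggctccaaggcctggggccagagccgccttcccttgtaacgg
These windows lie at chr6:122856108-122856407 (C3ar1), chr17:17883890-17884189 (Fpr1) and chr7:16244105-16244404 (C5ar2), all on the minus strand.

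Motifs were searched on both strands in 32851 RefSeq promoter windows of 300 bases. The AP-1 letters TGANTCA occurred in 7.81% of all windows and, among the 8 receptor genes, in that of C3ar1. The PU.1 or ETS core GGAAGT occurred in 23.8% of all windows and in those of C5ar1, C5ar2 and Ltb4r1. The C/EBP letters TTNCNNAA were in 40.7% of all windows and in those of Fpr1, Fpr2, Fpr3, C5ar1 and C5ar2. For Fpr3 the RefSeq start lies 82606 bases from the GENCODE start, so its window is not at the start of the GENCODE gene. For C5ar1 it lies 202 bases from the GENCODE start, so most of the C5ar1 window is inside the GENCODE gene. The hypoxia response core ACGTG was in 19.6% and the interferon-stimulated element in 3.44% of all windows, and neither was in any of the 8 windows. Within each window shown, no matches overlapped.

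In edgeR's quasi-likelihood test, with Benjamini-Hochberg adjustment over all 12908 genes, 0 of the 7 tested receptors and 0% of all genes passed an adjusted p of 0.05 in either direction. At an unadjusted p under 0.05 in edgeR, 3 of the 7 were higher in hyperoxia, against 9.10% of all tested genes, and 1 was lower, against 3.91%, or 13.0% of all genes for both directions. DESeq2 called 1 member higher, C3ar1, against 3.57% of all tested genes, and 0 lower, against 0.403%, or 3.97% for both directions. Limma-voom called 0 members. The CPM of the groups did not overlap for 3 members that were higher, against 9.57% of all tested genes, and for 1 that was lower, against 10.3%, or 19.9% for both directions. The median log2 difference was 0.12 over the 7 receptors and 0.04 over all tested genes. The labels do not say that the libraries came from separate mice, so these p-values measure the spread between samples, which may be technical in part.

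**Figure D3:**
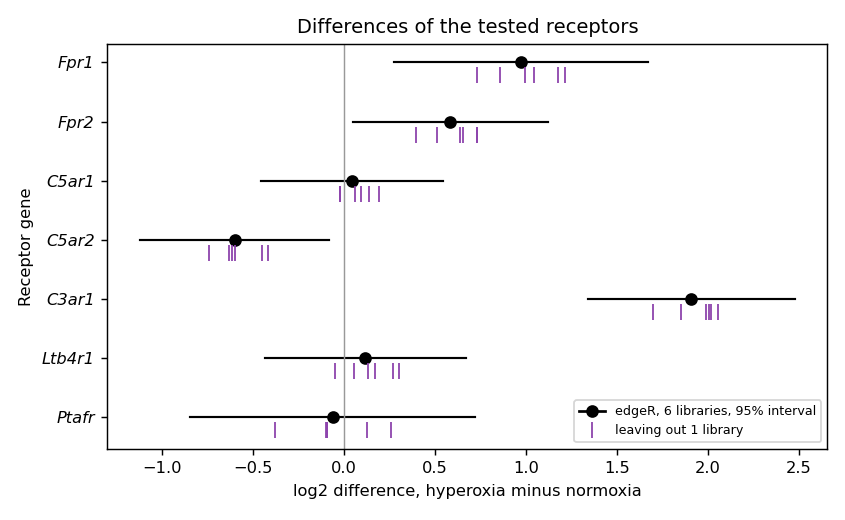
log2 difference (hyperoxia minus normoxia) of each tested receptor gene with its 95% interval from edgeR (black), and the values after leaving out each library (purple marks). C3ar1 stays between 1.70 and 2.05 when a library is left out, while the marks of C5ar1, Ltb4r1 and Ptafr fall on both sides of 0.

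C3ar1 had the largest difference of the set. It stood at 30.4, 46.6 and 31.2 CPM in hyperoxia replicates 1 to 3, against 9.81, 11.1 and 7.92 CPM in normoxia replicates 1 to 3. Every hyperoxia library was above every normoxia library, with replicate 2 the highest. The log2 difference was 1.91 ± 0.25 (SE), a 3.75-fold difference with a 95% interval of 2.53 to 5.57. Its p was the fifth lowest of the 12908 tested genes, and its adjusted p of 0.0974 in edgeR missed the threshold, whereas DESeq2 gave 8.23e-08 and limma-voom 0.165. Leaving out 1 library at a time gave log2 differences of 1.70 to 2.05 with adjusted p values of 0.0346 to 0.529 in edgeR. It passed without hyperoxia replicate 1, at 2.05 with an adjusted p of 0.0346, and not without hyperoxia replicate 2, at 1.70 with 0.0731. In build GRCm38, on which all gene positions are given, the gene (ENSMUSG00000040552) lies on chromosome 6 from 122847138 to 122856161 on the minus strand, and its transcripts share no 50-base window with another gene.

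Markers of monocytes and macrophages were also higher in hyperoxia: 9 of the 14 were higher at an unadjusted p under 0.05 in edgeR, against 9.10% of all tested genes. In edgeR 0 of these markers passed an adjusted p of 0.05, and DESeq2 called 8 higher, against 3.57% of all tested genes. Their median log2 difference was 1.55, against 0.04 over all tested genes. C3ar1 is known from macrophages as well as neutrophils, and in bulk RNA more cells of a type and more RNA per cell cannot be told apart. The 2 genes whose pattern over the 6 libraries was most like that of C3ar1, among 5167 candidates whose average log2 CPM reached 3, were Msr1 and Phf11d. Their root mean square differences from C3ar1 in centred log2 CPM were 0.165 and 0.177. Msr1, a macrophage scavenger receptor, had 18.2, 32.6 and 23.5 CPM in hyperoxia and 5.83, 5.88 and 5.01 CPM in normoxia. All hyperoxia libraries were above all normoxia libraries for Msr1. Csf1r and Cd68 of the same list overlapped between groups. Csf1r, the macrophage colony-stimulating factor receptor, averaged 180.5 ± 18.1 CPM in hyperoxia libraries and 181 ± 35.4 CPM in normoxia, and the lysosomal protein gene Cd68 578 ± 9.93 CPM in hyperoxia libraries and 554 ± 39.2 CPM in normoxia libraries (mean ± SD, n = 3 each). The tissue macrophage receptor genes Mrc1 and Mertk were present at 0.405 to 3.10 and 0.557 to 0.969 CPM in hyperoxia and at 0.177 to 0.591 and 0.0887 to 0.468 CPM in normoxia. The part of such cells in the C3ar1 difference was not tested.

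**Figure D4:**
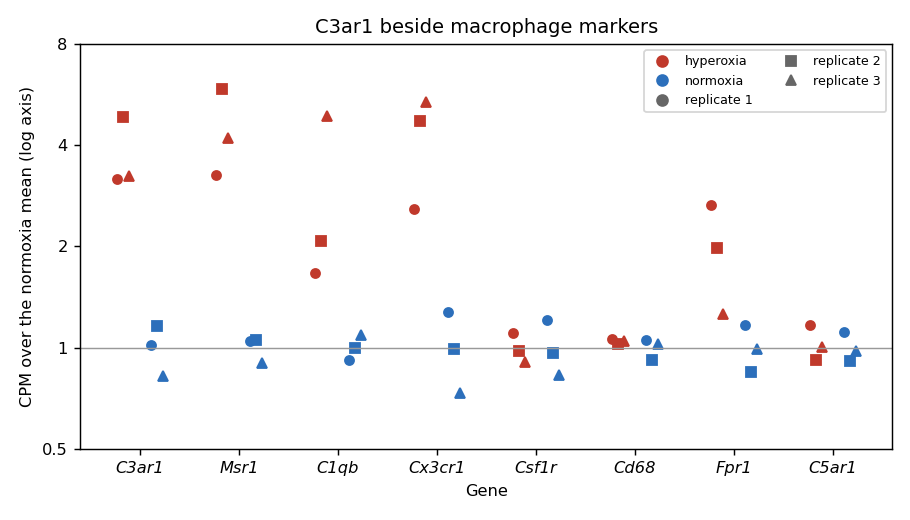
CPM over the normoxia mean (log axis) for C3ar1, monocyte and macrophage marker genes, Fpr1 and C5ar1, hyperoxia in red at the left of each pair and normoxia in blue. C3ar1, Msr1, C1qb and Cx3cr1 are above normoxia in all 3 hyperoxia libraries, while Csf1r, Cd68 and C5ar1 overlap between groups.

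Against C5ar1 in the same library, where library size cancels, C3ar1 had 0.00957, 0.0185 and 0.0114 counts per C5ar1 count in hyperoxia and 0.00324, 0.00445 and 0.00297 in normoxia. The groups did not overlap, and the log2 ratio differed by 1.85. The exact two-sided permutation test gave p = 0.1, the smallest that 3 against 3 libraries allow, and an adjusted p of 0.35 over the 7 receptor pairs compared. Against Fpr1, C3ar1 had 0.0123, 0.0253 and 0.0266 counts per Fpr1 count in hyperoxia and 0.00903, 0.0141 and 0.00857 in normoxia. Here hyperoxia replicate 1 was below normoxia replicate 2, and the exact permutation p was 0.2 (adjusted 0.35).

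Fpr1 was the most abundant formyl peptide receptor and the member with the next largest difference. It stood at 2478, 1841 and 1174 CPM in hyperoxia, against 1087, 787 and 923 CPM in normoxia. All hyperoxia libraries were above all normoxia libraries, but hyperoxia replicate 3 exceeded normoxia replicate 1 by a narrow margin. The log2 difference was 0.97 ± 0.31 (SE), a 1.96-fold difference with a 95% interval of 1.21 to 3.19, and the adjusted p was 0.25 by edgeR and 0.0611 by DESeq2. Without hyperoxia replicate 1 it was 0.73, and without hyperoxia replicate 3 it was 1.21. Krt83, Rdh12 and Ifi211 had the patterns most like that of Fpr1, with root mean square differences of 0.05, 0.12 and 0.17 in centred log2 CPM. Fpr1 (ENSMUSG00000045551) lies on chromosome 17 from 17876471 to 17883940 on the minus strand and shared 1 of its 1275 windows of 50 bases with Fpr2.

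Fpr2 stood at 179, 238 and 147 CPM in hyperoxia, against 140, 114 and 123 CPM in normoxia. The groups did not overlap, and hyperoxia replicate 2 was the highest library. The log2 difference was 0.58 ± 0.23 (SE), a 1.5-fold difference, and the adjusted p was 0.355 by edgeR and 0.272 by DESeq2. Without hyperoxia replicate 2 it was 0.39. Acot9, Cyp51 and Stx18 were most like Fpr2 in pattern, with root mean square differences of 0.04, 0.06 and 0.09. Fpr2 had 0.0721, 0.129 and 0.125 counts per Fpr1 count in hyperoxia and 0.128, 0.145 and 0.133 in normoxia, and the exact permutation p of that ratio was 0.2 (adjusted 0.35), with overlapping groups.

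Values of Fpr2 carry a limit from its sequence: 31.5% of its 50-base windows occur in other genes, 368 of them in Gm5966, which is not analysed here, and 82 in Fpr3. Reads from those windows may have been left uncounted or given to another gene, so the level of Fpr2, its rank among the receptors and its ratio to Fpr1 may be too low. Reads of another gene may also have been given to Fpr2, so the direction of the error is not known. Fpr2 (ENSMUSG00000052270) starts on chromosome 17 at 17887824 and ends at 17893952 on the plus strand, overlapping the annotated span of Fpr3 (ENSMUSG00000079700, 17887852 to 17971677), and both share 48 exon bases. Fpr3 had 1, 0 and 0 counts in hyperoxia and 2, 0 and 0 counts in normoxia, under the 3 counts taken as the floor, so no fold is given. The mouse relatives Fpr-rs3, Fpr-rs6 and Fpr-rs7 had 0 counts in every library, and Fpr-rs4 had 1 count in all. A count of 0 allows up to 0.047 to 0.0759 CPM in hyperoxia libraries and 0.0666 to 0.0771 CPM in normoxia libraries.

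C5ar2 was the receptor that was lower in every hyperoxia library. It stood at 11.6, 8.31 and 13.0 CPM in hyperoxia, against 15.2, 16.0 and 18.6 CPM in normoxia. All hyperoxia libraries were below all normoxia libraries, with replicate 2 the lowest. The log2 difference was -0.60 ± 0.23 (SE), with a 95% interval of -1.12 to -0.08, and the adjusted p was 0.324 by edgeR and 0.277 by DESeq2. Without hyperoxia replicate 2 it was -0.42. Rbm25, Zmat1 and Brd2 had the patterns most like that of C5ar2, each with a root mean square difference of 0.08 to 0.09. Of its 50-base windows, 4.39% occur in other genes.

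C5ar1 stood at 3180, 2514 and 2742 CPM in hyperoxia, against 3031, 2496 and 2664 CPM in normoxia, and the groups overlapped. The log2 difference was 0.04 ± 0.22 (SE) with a 95% interval of -0.46 to 0.54. As a fold, that interval runs from 0.727 to 1.46. Prkar1a, Babam2 and Fam168a were most like it in pattern. C5ar1 (ENSMUSG00000049130, 16246743 to 16259540) and C5ar2 (ENSMUSG00000074361, 16234585 to 16244154) are neighbours on the minus strand of chromosome 7. Per C5ar1 count, C5ar2 had 0.00364, 0.00330 and 0.00475 counts in hyperoxia and 0.00503, 0.00643 and 0.00699 in normoxia. The groups of this ratio did not overlap, its log2 value differed by -0.66, and the exact permutation p was 0.1 (adjusted 0.35).

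The lipid receptors overlapped between groups. Ltb4r1 stood at 390, 497 and 312 CPM in hyperoxia, against 427, 339 and 341 CPM in normoxia, a log2 difference of 0.12 ± 0.24 (SE) with a 95% interval of -0.43 to 0.67. Without hyperoxia replicate 2 it was -0.0512. Ltb4r1 (ENSMUSG00000046908) lies on chromosome 14 from 55765962 to 55768494 on the plus strand. Csk, Ift57 and Rap1gds1 were most like it in pattern, with root mean square differences of 0.03 to 0.04. Ltb4r2, the low-affinity leukotriene B4 receptor, had 5, 4 and 3 counts in hyperoxia and 1, 11 and 5 counts in normoxia.

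Ptafr (ENSMUSG00000056529) lies on chromosome 4 from 132564067 to 132582683 on the plus strand and shares 1.64% of its 50-base windows with other genes. It stood at 527, 264 and 691 CPM in hyperoxia, against 451, 493 and 604.5 CPM in normoxia. Hyperoxia held both the lowest library, replicate 2, and the highest, replicate 3. The log2 difference was -0.06 ± 0.34 (SE) with a 95% interval of -0.85 to 0.72, and without hyperoxia replicate 2 it was 0.26. Nfkbia, Gtf2ird2 and Pafah1b3 were most like it in pattern, with root mean square differences of 0.07, 0.10 and 0.11. Ptafr had 1.35, 0.531 and 2.22 counts per Ltb4r1 count in hyperoxia and 1.06, 1.45 and 1.77 in normoxia, with an exact permutation p of 0.8 (adjusted 0.8). Both the lowest and the highest ratio were those of hyperoxia libraries.

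**Figure D5:**
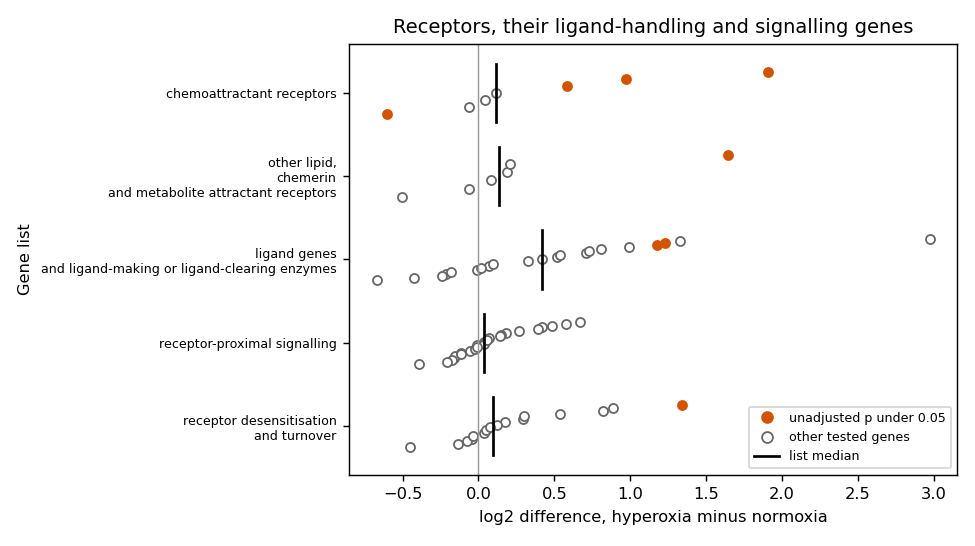
log2 difference (hyperoxia minus normoxia) of every tested gene in 5 lists, with filled points for an unadjusted p under 0.05 in edgeR and black lines for list medians. The medians run from 0.04 for receptor-proximal signalling to 0.42 for ligand genes and ligand-handling enzymes.

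Other attractant receptors were compared with the same fit. Of 11 listed genes for receptors of lipids, chemerin and metabolites, 6 were tested, 0 passed an adjusted p of 0.05 in edgeR, 1 was higher at an unadjusted p under 0.05 and 0 were lower, against 9.10% and 3.91% of all tested genes, and DESeq2 called 1 higher, against 3.57%. The list's median log2 difference was 0.14, against 0.04 over all tested genes. The 1 gene was Cmklr1, the chemerin receptor, with 1.14, 2.30 and 1.58 CPM in hyperoxia and 0.538, 0.377 and 0.694 CPM in normoxia, a log2 difference of 1.64 ± 0.44 (SE). Its adjusted p was 0.187 by edgeR and 0.0253 by DESeq2. The receptor is also known from macrophages, whose markers were higher in the same libraries, and their part in this difference was not tested. Hcar2, a receptor for hydroxybutyrate and niacin, had 3353, 962 and 3157 CPM in hyperoxia and 3213, 3740 and 3660 CPM in normoxia, so that hyperoxia replicate 2 alone was far below the rest. Gpr84, a receptor for medium-chain fatty acids, had 235, 248.6 and 605 CPM in hyperoxia and 247, 359 and 336 CPM in normoxia, with overlapping groups.

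Genes for the ligands and for enzymes that make or clear them had a median log2 difference of 0.42 over 21 tested of 24 listed, against 0.04 over all tested genes, and 15 of the 21 were above 0, against 6931 of all 12908. In edgeR 0 passed an adjusted p of 0.05, 2 were higher at an unadjusted p below 0.05 and 0 were lower, and DESeq2 called 0. A count of 2 in 21 is near the 9.10% of all tested genes that were higher by this rule. The 2 were Cfb, complement factor B, with 5.57, 3.02 and 4.46 CPM in hyperoxia and 1.43, 1.75 and 2.60 CPM in normoxia, and Pafah2, an enzyme that degrades platelet-activating factor, with 0.734, 1.05 and 1.01 CPM in hyperoxia and 0.398, 0.355 and 0.437 CPM in normoxia. Cfb shares 2246 exon bases with Gm20547 on the same strand, which had 0 counts in all 6 libraries. C3, the source of C3a, averaged 73.5 ± 15.1 CPM in hyperoxia libraries and 74.1 ± 7.22 CPM in normoxia libraries (mean ± SD, n = 3 each), and Hc, which encodes C5, 0.757 ± 0.679 CPM in hyperoxia libraries and 0.468 ± 0.124 CPM in normoxia.

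For several ligand genes hyperoxia replicate 2 was far above the rest. Anxa1, whose product is a ligand of FPR2, had 1683, 5652 and 981 CPM in hyperoxia and 1912, 1022 and 1255 CPM in normoxia. Saa3, a serum amyloid A gene, had 75.7, 498 and 144 CPM in hyperoxia and 82.2, 101 and 103 CPM in normoxia. Without that library the groups of both genes overlapped as well. Of the leukotriene B4 enzymes, Alox5 averaged 292.5 ± 113 CPM in hyperoxia libraries and 233 ± 55.5 CPM in normoxia, its activating protein gene Alox5ap 1090.0 ± 636 CPM in hyperoxia libraries and 657 ± 165 CPM in normoxia, and Lta4h, which makes leukotriene B4, 56.5 ± 50.8 CPM in hyperoxia libraries and 32.4 ± 3.60 CPM in normoxia libraries (mean ± SD, n = 3 each). Hyperoxia replicate 2 was the highest library for all 3 enzyme genes. Exons of Alox5ap, Gpr84, Hc and Gng2 overlap a gene on the opposite strand, so without a stated strand setting their values are uncertain by the reads of that partner.

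Signalling genes next to the receptors had a median log2 difference of 0.04 over all 24 listed, against 0.04 over all tested genes. In edgeR 0 passed an adjusted p of 0.05 and 0 were under an unadjusted p of 0.05 in either direction, and DESeq2 called 0. Gnai2, the main inhibitory G protein alpha subunit of leukocytes, averaged 1522 ± 360 CPM in hyperoxia libraries and 1341 ± 229 CPM in normoxia libraries (mean ± SD, n = 3 each). The lowest p values were those of the G protein subunit genes Gng2 and Gna15 and of Dock5, an activator of Rac, with log2 differences of 0.67 ± 0.38, 0.58 ± 0.35 and 0.39 ± 0.27 (SE).

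Genes that switch receptor signals off or move receptors through the cell had a median log2 difference of 0.10 over all 16 listed, against 0.04 over all tested genes. In edgeR 0 passed an adjusted p of 0.05, 1 was higher at an unadjusted p below 0.05 and 0 were lower, against 9.10% and 3.91% of all tested genes, and DESeq2 called 1, against 3.57% higher. The 1 of 16 that was higher was Rgs1, which speeds up the shutdown of inhibitory G proteins, with 114.5, 55.9 and 181 CPM in hyperoxia and 39.5, 50.8 and 48.6 CPM in normoxia. Its log2 difference of 1.34 ± 0.39 (SE) gave adjusted p values of 0.219 by edgeR and 0.0214 by DESeq2. The part of cells other than neutrophils in the Rgs1 difference was not tested. Rgs2, a relative that acts mainly on another G protein class, had 343, 407 and 375 CPM in hyperoxia and 548, 507.5 and 481.5 CPM in normoxia. All hyperoxia libraries were below all normoxia libraries for Rgs2, and its log2 difference was -0.45 ± 0.20 (SE), with adjusted p values of 0.384 by edgeR and 0.302 by DESeq2. Rgs18 had a difference of 0.89 ± 0.43 with overlapping groups.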

How the data were processed

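RNA-seq of sorted uterine neutrophils was compared in 3 hyperoxia and 3 normoxia libraries. The authors deposited a table of whole-number counts for every library, not normalized. STAR 2.4.2a, DESeq2 1.16.1 and GRCm38 come per the submitters' processing notes. Which program counted reads, with which annotation and strand setting, is not given in the sources used here. Reads of overlapping genes therefore cannot be assigned with certainty.

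Of 43432 gene IDs, 42548 matched GENCODE M21, which gave symbols, coordinates and exon lengths. Counts were tested with edgeR 4.0.16 in R 4.3.3 (filterByExpr, TMM, robust quasi-likelihood test, two-sided, Benjamini-Hochberg adjustment over 12908 genes), and the standard error of a log2 difference was derived from the F statistic. Alternatives were DESeq2 1.42.0, limma-voom (limma 3.58.1), also with library weights by quality, 3 other scalings, 2 other filters and leaving out each library. Ratios of counts within a library had 0.5 added to each count for the log2 value. No library was a copy of another of its group. Chi-square over its degrees of freedom was 189 to 726 between hyperoxia libraries and 29.8 to 70.8 between normoxia libraries. Floors of 3 counts cover counting error only. Promoters came from RefSeq, and 8 of 8 genes matched. The edgeR test was also run on simulated counts drawn with the same spread in both groups, and its outcome is not reported here.

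Replicates were numbered by accession order, which does not pair libraries. The receptors and all gene lists were chosen with earlier results of these data known. Named genes were the receptors, the 3 tested genes of each list with the lowest p, 9 genes fixed by name, and for each receptor with a mean of at least 10 CPM the 3 genes nearest in centred log2 CPM (prior count of 2, average log2 CPM of at least 3, no model names). Marker genes are named beside the results they touch. Some items covered by these rules are not reported here.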

Additional observations from a re-analysis of the deposited data

How the results depend on the processing

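Under all 14 alternatives, Fpr1, Fpr2 and C3ar1 kept a higher and C5ar2 a lower level in hyperoxia, and Fpr1, Fpr2 and C5ar2 missed the threshold in each. C3ar1 passed with DESeq2 (1.92 on the log2 scale), with limma-voom using sample quality weights (1.77, adjusted p of 0.0323) and with edgeR without a filter (1.92, adjusted p of 0.00122, over 23147 genes). Leaving out 1 library gave 1.70 to 2.05 for C3ar1, -0.0249 to 0.19 for C5ar1, -0.0512 to 0.30 for Ltb4r1 and -0.38 to 0.26 for Ptafr. C5ar1 was -0.0249 without hyperoxia replicate 1 and -0.0247 without normoxia replicate 2, Ltb4r1 -0.0512 without hyperoxia replicate 2, and Ptafr 0.26 without hyperoxia replicate 2, 0.12 without normoxia replicate 3 and 0.0121 with quality weights. The cause was not tested.

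In place of the 0 members and 0 genes called by edgeR, DESeq2 called 1 member, 461 genes higher and 52 lower, and 2 pathway list genes higher. Quality weights gave 1 member, 61 genes higher and 1 lower, and edgeR without a filter 1 member, 205 genes higher and 9 lower. Leaving out 1 library gave 0 to 1 members, 0 to 164 genes higher and 0 to 12 lower, the highest values being those without hyperoxia replicate 1. The log2 ratio of Ptafr to Ltb4r1 differed by -0.26, and by 0.308 without hyperoxia replicate 2 (range -0.7225 to 0.308 with 1 library left out); that of Ltb4r2 to Ltb4r1 differed by -0.37, and by 0.308 without normoxia replicate 2 (range -1.289 to 0.308), from at most 11 counts of Ltb4r2. Adding 1 in place of 0.5 turned the direction of none of the 7 ratios. No paired analysis was possible because the labels give no replicate numbers. At this depth receptors under 3 counts, such as Fpr3, cannot be compared.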
